A study of Homo sapiens with 2 samples.

Results

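The subject is 10 mature arms of the miR-23, miR-24 and miR-27 hairpins, out of 2632 miRNA probes on the array. They were found by name, and each of the 10 had a spot of its own. The set was selected on measured values, since the spot brightness of hsa-miR-24-3p beside dimmer cluster partners was known when the members were picked. Which of the arms are bright is therefore given as a description, with no test.

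The RNA came from exosomes, small vesicles that cells shed into their medium, of U87MG delta EGFR cells, a glioblastoma line that derives from U87MG and whose name refers to a shortened form of the epidermal growth factor receptor. Both groups grew in DMEM with exosome-depleted fetal bovine serum. The control group is labelled as non-treated, and the other received boron neutron capture therapy (BNCT), in which boron taken up by a cell is split by thermal neutrons. For BNCT the labels give 25 ppm of a p-boronophenylalanine-fructose complex for 2 hours, thermal neutrons, and medium collected on day 3 after irradiation. The labels carry this treatment text for both samples, so whether control cells got the compound or a sham, and when their medium was taken, is not known. The sample titles name exosomes, while the labels' extraction text speaks of RNA from cells. Each group had 1 array, a Toray 3D-Gene slide with Cy5-labelled RNA, so no spread between cultures was measured, nothing was tested, and array, slide and treatment cannot be told apart.

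miRNAs are short RNAs cut from hairpin precursors, and each hairpin can give a 5p and a 3p arm. An arm finds its target mRNAs mainly through its seed, bases 2 to 8 from its 5′ end, and lowers their translation or stability. In this family the 3p arms are the usual main products and the 5p arms the passengers. miR-23, miR-27 and miR-24 hairpins lie side by side in a pair of clusters that are each thought to be transcribed as 1 RNA. miR-23a is known to repress mitochondrial glutaminase, miR-27a the transcription factor FOXO1, and miR-24 the DNA-damage histone H2AX in differentiated blood cells.

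The mature sequences from RefSeq (GRCh38.p14) are shown because the arms share or differ in seeds and because paralogs are nearly identical. Each is written 5′ to 3′ with the seed in capitals. The 3p arms come first.
hsa-miR-24-3p: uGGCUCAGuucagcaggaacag
hsa-miR-23a-3p: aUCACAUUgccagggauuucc
hsa-miR-23b-3p: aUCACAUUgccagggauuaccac
hsa-miR-27a-3p: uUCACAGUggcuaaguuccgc
hsa-miR-27b-3p: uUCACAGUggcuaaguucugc
hsa-miR-23a-5p: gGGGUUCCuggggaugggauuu
hsa-miR-23b-5p: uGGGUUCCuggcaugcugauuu
hsa-miR-24-1-5p: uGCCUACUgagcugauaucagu
hsa-miR-24-2-5p: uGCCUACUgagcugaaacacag
hsa-miR-27a-5p: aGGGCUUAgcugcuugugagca

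hsa-miR-23a-3p and hsa-miR-23b-3p had 20 of 21 compared bases in common, with U19A as the substitution (position from the 5′ end, first-named arm first). hsa-miR-27a-3p and hsa-miR-27b-3p also had 20 of 21 in common, with C19U. Signal at either spot of such a pair may come from both paralogs. hsa-miR-24-1-5p and hsa-miR-24-2-5p were identical over the first 15 bases. The seed of hsa-miR-24-3p was found in no other of the 2337 array miRNAs that matched a RefSeq mature sequence. The miR-27 3p seed was shared with miR-9985, and the miR-23 3p seed with miR-23c.

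In GRCh38.p14 the MIR23A cluster spans chr19:13836287-13836659 on the minus strand, 373 bases, within the bounds of the long non-coding gene MIR23AHG. The MIR23B cluster spans chr9:95085208-95086088 on the plus strand, 881 bases, within the bounds of the protein-coding gene AOPEP. In both, the order from the 5′ end is miR-23, miR-27, miR-24. The gaps between hairpins are 69 and 80 bases in the MIR23A cluster, and 140 and 479 bases in the MIR23B cluster. hsa-miR-24-3p is the arm that both clusters encode with the same letters, so its spot cannot tell the loci apart. It lies at chr19:13836289-13836310 in MIR24-2 and at chr9:95086064-95086085 in MIR24-1. The hairpins are shown with this arm in capitals, because what differs between the loci is the rest of the precursor.
MIR24-2: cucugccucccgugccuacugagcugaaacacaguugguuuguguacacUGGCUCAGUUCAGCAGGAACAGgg
MIR24-1: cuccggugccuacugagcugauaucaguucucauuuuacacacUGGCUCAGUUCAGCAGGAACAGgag

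**Figure D1:**
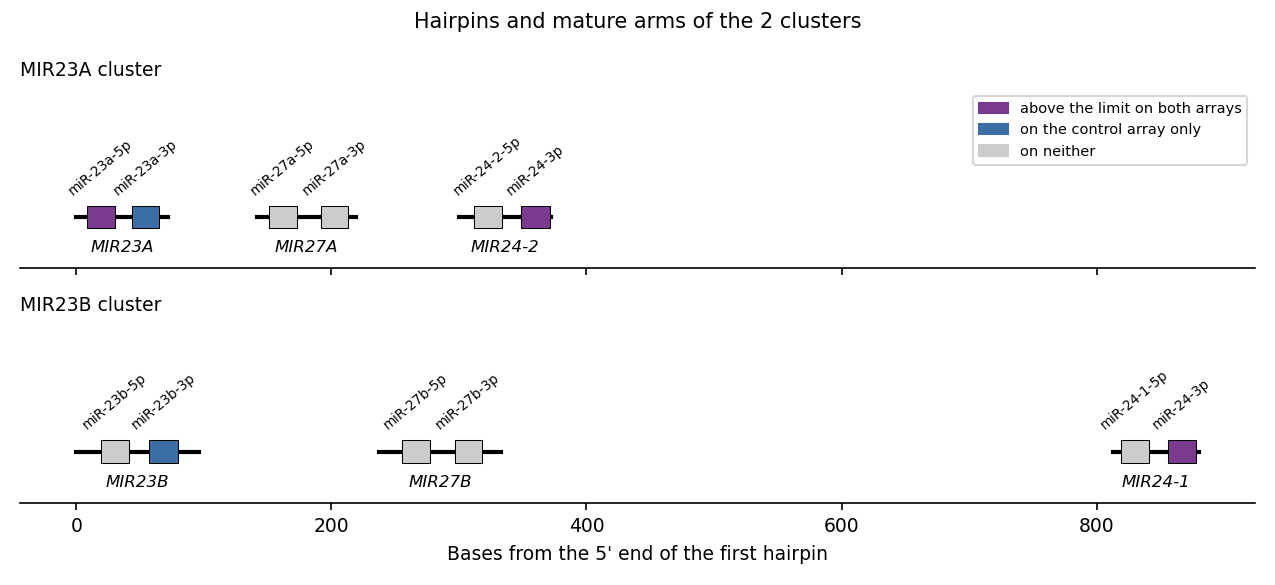
Hairpins (black lines) and mature arms (boxes) of the MIR23A and MIR23B clusters, drawn in bases from the 5′ end of the first hairpin. Colour gives the arrays on which an arm's spot was above the limit: hsa-miR-24-3p and hsa-miR-23a-5p on both, hsa-miR-23a-3p and hsa-miR-23b-3p in control alone, the other arms on neither. The box of hsa-miR-27b-5p, which is not one of the 10 arms, is included.

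Brightness is the median intensity of a spot in the red channel, in scanner units. An arm is called above the limit where its spot exceeded the mean + 2 SD of the 312 blank spots, after the top and bottom 5% of blanks were left out. The blanks had a mean of 258.1 units (SD 6.93) in control and 254.9 (SD 6.27) in BNCT, which put the limits at 272.0 units for control and 267.5 for BNCT. A brighter spot need not mean more of that miRNA, because probes bind with different strength. The order of spots is given as an order of brightness and not of amount.

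hsa-miR-24-3p stood far above the blanks on both arrays. hsa-miR-23a-5p stood above them by much less, and the other 8 arms lay no more than 3.24 blank SDs over the blank mean in control and 1.53 in BNCT. In control 4 of the 10 arms were above the limit, against 28.6% of all miRNA probes, and in BNCT 2 of them were, against 36.2%. Both arms above it on the BNCT array, hsa-miR-24-3p and hsa-miR-23a-5p, were above it on both arrays, as were 24% of all probes measured on both. Another 2, hsa-miR-23a-3p and hsa-miR-23b-3p, passed it in control but not in BNCT, as did 4.64% of probes. The remaining 6 were under the limit on both arrays, among them both miR-27 3p arms.

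The hsa-miR-24-3p spot read 620.0 units in control and 915.6 in BNCT. That is 361.9 units over the blanks, or 52.2 blank SDs, in control, and 660.7 units or 105.4 blank SDs in BNCT. Its brightness rank was 14 of 2630 measured miRNA probes in control and 9 of 2632 in BNCT. The brightest on both, miR-6743-5p, read 1183.7 and 1877.1 units. The 5 spots that touch hsa-miR-24-3p on the slide read 237.4 to 258.8 units in control and 247.8 to 264.5 in BNCT, and the brightest of these 5 on each array was its own passenger hsa-miR-24-1-5p. The adjacent spots were thus near the level of the blanks.

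hsa-miR-23a-3p, which lies upstream in the same cluster as MIR24-2, read 280.5 units in control and 259.0 in BNCT. Its paralog hsa-miR-23b-3p read 280.6 and 259.6. Both were 3.23 and 3.24 blank SDs over the blanks in control, and 0.65 and 0.75 in BNCT. On the control array 3 of 312 blank spots were brighter than either, and on the BNCT array 96 and 93 were. Of the 112 spots without a probe, 110 in control and 112 in BNCT were brighter than either arm. miR-23c, a relative with the same seed from the X chromosome, was under the limit on both arrays at 266.3 and 261.4 units.

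hsa-miR-27a-3p, the arm between miR-23a and miR-24-2 in the cluster, read 268.9 units in control and 252.0 in BNCT, and hsa-miR-27b-3p read 266.9 and 262.1. Both were under the limits, by 3.06 and 5.12 units in control and by 15.4 and 5.38 in BNCT. On the BNCT array 197 of the 312 blanks were brighter than hsa-miR-27a-3p, and 63 were brighter than hsa-miR-27b-3p. A level of the miR-27 main arms was therefore not detectable at this signal, which does not show that they are absent.

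Among the passenger arms hsa-miR-23a-5p was the brightest on both arrays, though in control 105 of the 112 spots without a probe were brighter. It read 285.9 units in control and 307.7 in BNCT, 4.01 and 8.42 blank SDs over the blanks, at ranks 423 and 409. Its paralog hsa-miR-23b-5p, which has the same seed, read 269.5 and 260.4 units, under the limit by 2.47 in control. The passengers that tell the miR-24 loci apart were both under the limits. hsa-miR-24-1-5p read 258.8 units in control and 264.5 in BNCT, and hsa-miR-24-2-5p read 263.2 and 257.4. hsa-miR-27a-5p read 261.3 and 252.5. hsa-miR-27b-5p, the remaining arm of the clusters, was not among the 10 and read 250.5 and 250.9 units.

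**Figure D2:**
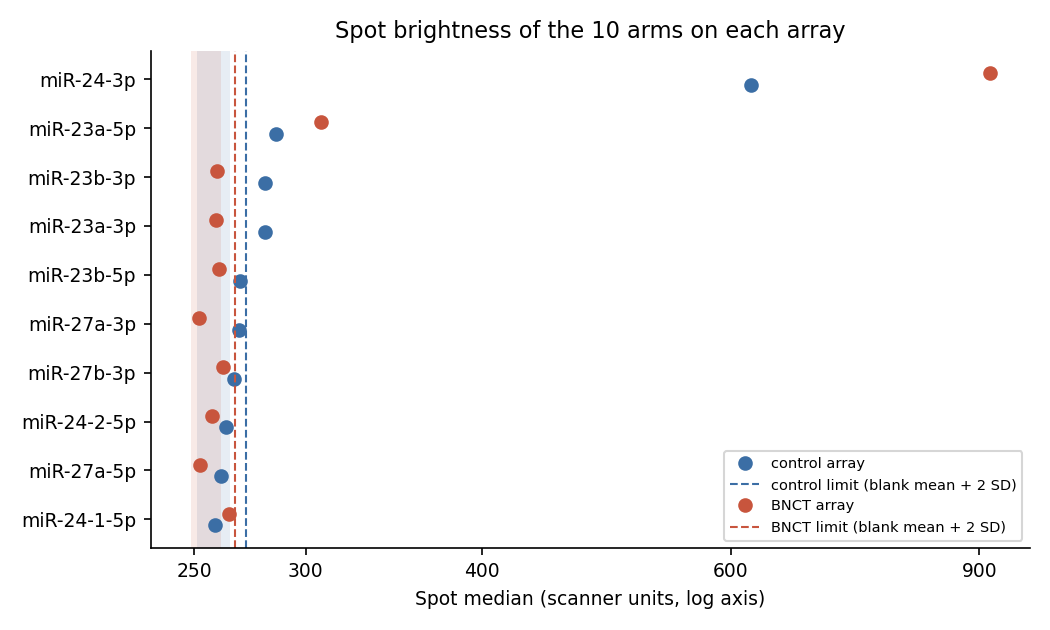
Spot median (scanner units, log axis) of the 10 arms on the control array (blue) and the BNCT array (red), 1 spot each. Dashed lines are the limits of 272.0 and 267.5 units, and shaded bands the blank mean ± 1 SD. hsa-miR-24-3p lies at 620.0 and 915.6 units, and the other arms between 252.0 and 307.7.

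**Figure D3:**
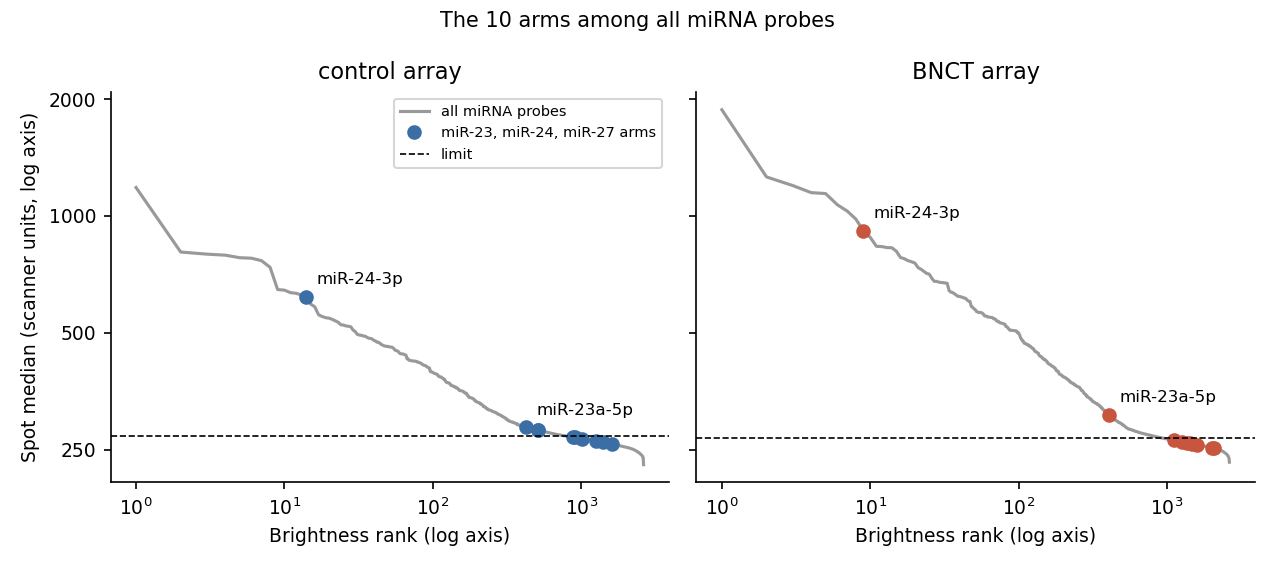
All miRNA probes of each array sorted by brightness (grey, both axes log), with the 10 arms as points and the limit as a dashed line. hsa-miR-24-3p sits at rank 14 in control and 9 in BNCT, and hsa-miR-23a-5p, next in brightness among the arms, at ranks 423 and 409.

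The comparison of BNCT with control asks how BNCT cells' vesicles differ in miRNA from those of untreated cells. After background correction and quantile normalization hsa-miR-24-3p had a log2 level of 8.98 in control and 9.12 in BNCT, a difference of 0.14 with a spot error of 0.13, or 1.10-fold. The spot error joins the blanks' SD to the variation of the spike control spots (4.86% and 8.03%), and covers neither cultures nor slides. hsa-miR-23a-5p had levels of 6.45 and 6.49, a difference of 0.04 with a spot error of 0.17. After quantile normalization neither reached 2-fold, and neither did any of the 630 probes above the limit on both arrays (0%). That count of 0 depended on the processing. Plain subtraction of the blanks put 16 of the 630 at 2-fold or more up and 24 down, no normalization 10 up and 0 down, and spike scaling 93 up and 0 down. Among probes listed on both arrays in the authors' processed values, 72 were up and 15 down by that much. Over the 630 the median difference after quantile normalization was -0.02 with an SD of 0.22, and 78.6% of them were lower than that of hsa-miR-24-3p. Both arms thus lay within 1 SD of the median difference.

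The unnormalized brightness of hsa-miR-24-3p was higher in BNCT, but so was that of most bright probes. Its height over the blanks was 1.83 times the control value, that of hsa-miR-23a-5p 1.90 times, and the median ratio of the 630 probes was 1.64. Of the 630, 83.8% read brighter in BNCT. The difference of hsa-miR-24-3p therefore depended on the scaling. It was 0.79 without normalization and 1.07 when the arrays were scaled to the spike control spots, where the median of the 630 was 0.45 and 0.73, and 0.56 in the authors' processed values, with a median of 0.41. With the scanner's own background column it turned to -1.32, and to -1.79 when the background model was fitted on the miRNA spots alone, a setting added after seeing the data. That column read 446.2 units at the hsa-miR-24-3p spot in control and 1076.1 in BNCT, where it is more than the spot itself. At the other 9 arms, all far dimmer, it read between 194.6 and 265.7 units on the arrays. It was high at other bright probes too. In BNCT it exceeded the spot at miR-4723-5p (986.2 against 881.0 units) and miR-6090 (837.7 against 828.1). At miR-6785-5p, miR-6089 and miR-6743-5p it read 719.6, 622.5 and 1546.0 units in BNCT, less than the spot.

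**Figure D4:**
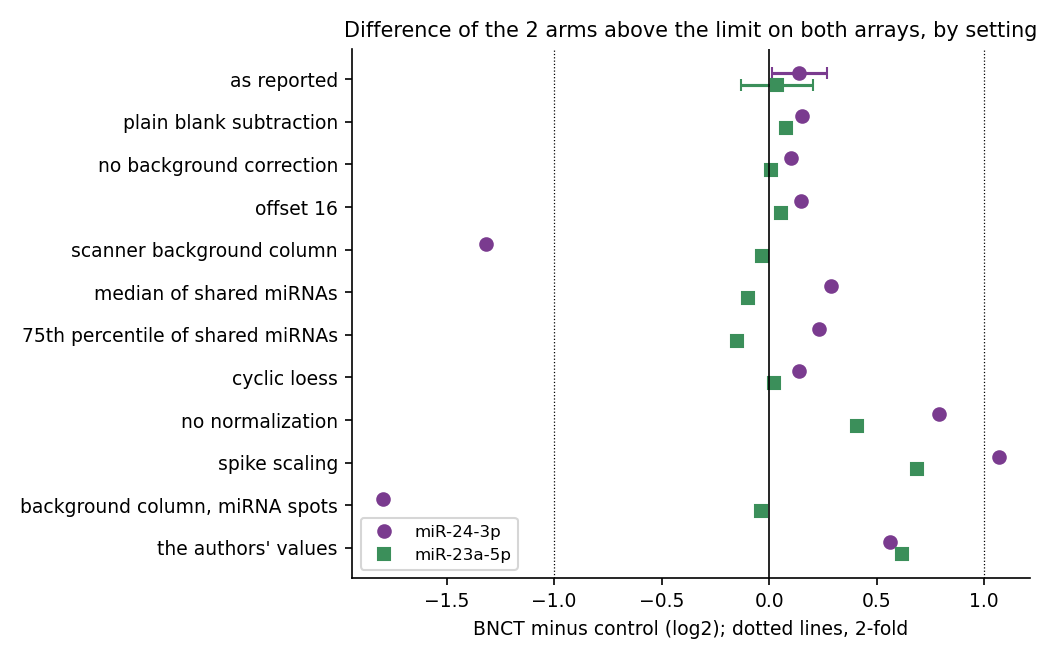
Difference BNCT minus control (log2) of hsa-miR-24-3p and hsa-miR-23a-5p as reported (with the spot error as bar) and under the other settings. hsa-miR-24-3p was lowest with the scanner's background column (-1.32 fitted on all spots, -1.79 on the miRNA spots) and highest with spike scaling (1.07). hsa-miR-23a-5p was lowest with scaling to the 75th percentile (-0.15) and highest with spike scaling (0.69).

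hsa-miR-23a-3p and hsa-miR-23b-3p have only a lower bound, their control level against the higher of the lowest detected level and their own level on the BNCT array. The bounds were at least 1.24-fold higher in control for each, against a median of 1.14 over the 122 probes that passed the limit in control alone. With plain subtraction of the blanks they were 2.42 and 2.44, and with the scanner's background column or spike scaling there was no bound above 1. In scanner units over the blanks they were lower in BNCT by 18.3 and 17.7, against a median of 13.3 over the same 122 probes. These falls are 1.95 and 1.88 times the combined spot error of 9.42 units. Probes picked for passing the limit in control alone tend to read lower in BNCT, so the sizes are a description only. The pair is not independent evidence, since their probes' targets differ at 1 of 21 compared bases.

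Outside hsa-miR-24-3p, 7 of 9 arms read fewer units over the blanks in BNCT than in control, and hsa-miR-23a-5p and hsa-miR-24-1-5p read more. Of all probes measured on both arrays 32.5% read fewer. For hsa-miR-27a-3p the difference was -13.7 units (1.46 spot errors in size), and for hsa-miR-27b-3p, hsa-miR-24-2-5p, hsa-miR-27a-5p and hsa-miR-23b-5p it was between -1.59 and -5.89 units, less than 1 spot error each. hsa-miR-24-1-5p differed by 8.93 units, also within 1 spot error. None of these 6 was above the limit on either array, so no fold change is given for them.

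Base composition moved with spot brightness over the 2337 of 2632 probes (88.8%) that matched a RefSeq sequence, and its part in the brightness of these arms was not tested. Of matched miRNAs with a G+C share of 40 to under 50%, 8.82% were above the limit in control and 11.9% in BNCT. From 50 to under 60%, where 6 of the 10 arms lie, it was 25.2% and 38.4%. From 60 to under 70% it was 59.3% and 69.7%. Across the matched probes, which share an array, labelling and scan, Spearman's rho between G+C share and spot units was 0.55 in control (n = 2335) and 0.63 in BNCT (n = 2337). The 10 arms run from 45.5% for hsa-miR-24-1-5p to 59.1% for hsa-miR-23a-5p, close to the matched probes' median of 52.2%. hsa-miR-23a-5p, the passenger above the limit on both arrays, thus had the highest G+C share of the 10, with 50% of its bases being G.

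hsa-miR-24-3p did not share the composition of most bright probes. Its G+C share was 54.5%, while the 100 brightest matched probes had a median of 72.7% on each array. Among 315 array miRNAs within 2.5 percentage points of its share, itself included, it was the 2nd brightest in control, after miR-6717-5p at 634.5 units. In BNCT it was the brightest of them. Its brightness was known when the members were picked, so these ranks are a description only. The median of these 315 was 262.3 units in control and 262.7 in BNCT. hsa-miR-27a-5p has the same G+C share and ranked 171st and 265th among the same 315. Of the 100 brightest matched probes, 6 in control and 4 in BNCT had a share no higher than that of hsa-miR-24-3p. These were itself, miR-4723-5p, miR-6717-5p and miR-642a-3p on both arrays, and in control also miR-8059 and miR-1827, the latter at 38.9% G+C and 464.6 units. They are named after their values were seen. hsa-miR-23a-3p and hsa-miR-23b-3p, at 47.6% and 47.8%, were 30th and 29th of 491 such peers in control and 213th and 201st in BNCT.

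**Figure D5:**
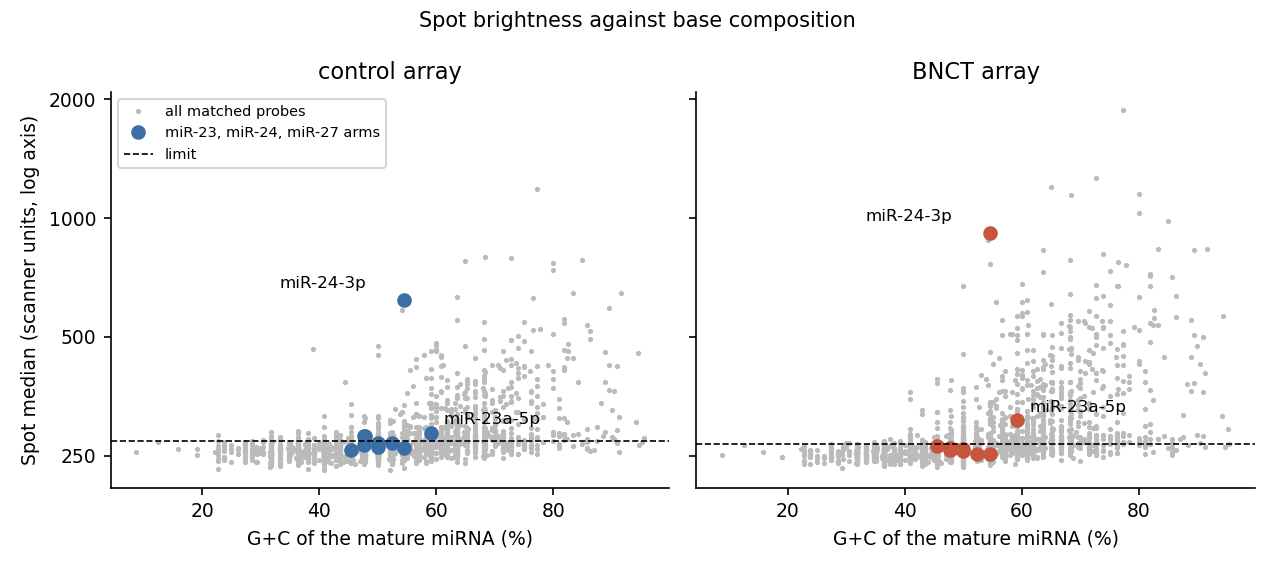
Spot median (scanner units, log axis) against the G+C share of the mature miRNA for the matched probes (grey) and the 10 arms (coloured), with the limit as a dashed line. At 54.5% G+C hsa-miR-24-3p lies at 620.0 and 915.6 units, where the median of its 315 peers was 262.3 and 262.7.

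Array miRNAs of other families that share a long run of bases with the 3p arms were dim. miR-4291 has a run of 14 bases in common with hsa-miR-24-3p and read 245.4 units in control and 258.4 in BNCT. miR-4317 shares 13 bases with both miR-23 3p arms and read 259.7 and 245.0 units. miR-9985 shares 15 bases and the seed with the miR-27 3p arms and read 240.0 and 249.2 units. None of these was above the limit on either array. The longest run that hsa-miR-23a-5p shares with another family is 9 bases, found in 5 array miRNAs. Of these, miR-6757-5p at 461.5 and 564.3 units and miR-6798-5p at 392.8 and 469.1 were above the limit on both arrays, miR-3198 in BNCT alone, and the others on neither. They are named after their values were seen. Binding of other miRNAs at the members' spots was not tested.

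By normalized level on the arrays, 2 values per miRNA, the probes nearest to hsa-miR-24-3p were miR-4723-5p and miR-6785-5p (Euclidean distance 0.13 on the log2 scale each), miR-6089 (0.15) and miR-6090 (0.16). miR-4723-5p read 583.6 units in control and 881.0 in BNCT. Over 2 arrays such likeness says only that brightness was similar.

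Set beside 3 other families with several hairpins, miR-30, miR-125, and miR-193 with miR-365, hsa-miR-24-3p read brighter than each of their arms, a value known when the members were picked. Of all probes 28.6% were above the limit in control and 36.2% in BNCT. The miR-30 family, which restrains epithelial-to-mesenchymal transition, had 1 of 11 arms above the limit in control and 3 in BNCT, and its brightest readings were 275.2 units (miR-30c-2-3p, control) and 271.6 (miR-30e-5p, BNCT). The miR-125 family, kin of the worm timing miRNA lin-4, had 1 and 3 of 5, with miR-125a-3p brightest at 280.6 and 288.7 units. The miR-193 and miR-365 hairpins had 2 and 5 of 7 probes above the limit, with the passenger miR-365a-5p brightest at 439.0 and 506.7 units. The medians were 269.2 and 260.0 units for the 10 arms, 254.4 and 258.7 for miR-30, 268.6 and 269.0 for miR-125, and 269.6 and 269.2 for miR-193 and miR-365. These counts are descriptions and the differences were not tested.

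Of 9 miRNAs usual in glioblastoma cells, miR-21-5p among them, 1 was above the limit in control, which was hsa-miR-23a-3p itself, and 0 in BNCT. The share over all probes was 28.6% in control and 36.2% in BNCT. The 9 summed to 4.66 units over the blanks in control and 0.15 in BNCT. They include hsa-miR-23a-3p and hsa-miR-27a-3p, and without these the other 7 summed to -28.5 and -0.99. Blood and serum markers had 0 of 6 above it in control and 3 in BNCT, with summed levels of 24.6 and 51.5 units. Neuronal markers had 0 and 2 of 4, against the same 28.6% and 36.2% of all probes. Of the blood markers, miR-16-5p and miR-142-3p read lower in BNCT and the others higher. The neuronal miR-124-3p passed the lower BNCT limit at 269.7 units, against 270.9 in control. The largest difference in these 2 lists, that of miR-144-3p, was 1.88 spot errors. The part of the markers in the results was not tested. The spots that carry no probe had means of 301.3 and 289.0 units, and of these 112 spots 110 in control and 112 in BNCT were brighter than hsa-miR-23a-3p, with the same counts for hsa-miR-23b-3p. None of them was brighter than hsa-miR-24-3p, and 105 in control and 11 in BNCT were brighter than hsa-miR-23a-5p.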

How the data were processed

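The deposited scanner files hold spot median intensity and a background median in the red channel, per the file headers, not scaled between arrays. The authors' processed intensity values are spot medians less a blank level, divided by 1.25 in control and 1.54 in BNCT, which gives a median of 25. Their software was not given in the sources. Background was corrected in R 4.3.3 with limma 3.58.1 (nec on the blank spots, offset 50), and log2 values were quantile-normalized over 2632 miRNA probes. On the control array 2 flagged miRNA spots were left out. Sequences were matched by name in Python 3.11.15, and 2337 of 2632 probes matched, with the 16 names that hold several miRNAs among those left out. The processing was also run on simulated arrays in which as many probes were raised as lowered and neither array was brighter as a whole. Such arrays cannot show which scaling is right for these data. The number of arrays limits precision.

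The members, lists and settings were chosen with earlier results of these data known. Named are the 10 arms, miR-27b-5p, miR-23c, the 4 probes nearest to hsa-miR-24-3p and the brightest probe. For each 3p arm the miRNA of another family with the longest shared run is named, and the brightest arm of each compared family. Bright probes of low G+C share, miRNAs that share a run with hsa-miR-23a-5p and the miR-3074 arms were added after values were seen. Some single markers are named as well. Marker lists covered glioblastoma, blood and serum, neuron, epithelium and liver. Alternatives changed the background, the scaling or the limit, or used the authors' values. The background column fitted on the miRNA spots alone was added after seeing the data.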

Additional observations from a re-analysis of the deposited data

How the results depend on the processing

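The difference of hsa-miR-24-3p (0.14) moved by less than its spot error with cyclic loess, with the 75th percentile of shared probes as the scale, with an offset of 16, with no background correction and with plain subtraction of the blanks. It moved further with scaling to the median of shared probes (0.29), in the authors' values (0.56), unnormalized (0.79) and scaled to the spikes (1.07). The scanner's background column turned its direction (-1.32, or -1.79 with the model fitted on the miRNA spots alone, added after seeing the data). The cause was not tested. The scaling itself moved the median of all 630 shared probes to 0.73 (spikes), 0.45 (no normalization) and -0.10 (75th percentile). With a limit at 5 SD the count of arms above it was 1 in control and 2 in BNCT. Of all probes, 356 of 2630 in control and 524 of 2632 in BNCT were above that limit. With the limit taken from probe-free spots the counts of arms were 1 and 1, beside 225 and 387 of all probes. In each case of 1 the arm was hsa-miR-24-3p. With untrimmed blanks and by listing in the authors' values the counts were 4 and 2. Signal close to the blanks limits what can be said of the arms other than hsa-miR-24-3p. In BNCT hsa-miR-23a-5p passed the 5 SD limit, but at 307.7 units it was under the limit from probe-free spots (313.6 units). Of these spots 11 were brighter. No paired analysis was possible because each group had 1 array, and for the same reason no replicate was left out.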

Other observations

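The MIR3074 hairpin lies on the strand opposite MIR24-1, at chr9:95086014-95086094 (GRCh38.p14), and its 5p arm covers 20 of the 22 bases of hsa-miR-24-3p on the other strand. The miR-3074-5p spot read 247.0 units in control and 260.6 in BNCT, under the limit on both arrays. miR-3074-3p, opposite hsa-miR-24-1-5p, read 272.5 units in control, 0.45 over the limit, and 264.9 in BNCT, under it. These probes were looked up after the values of the 10 arms were seen. Epithelial markers had 1 of 4 above the limit in control (miR-205-5p, 274.5 units, against a limit of 272.0) and 0 in BNCT. The share over all probes was 28.6% in control and 36.2% in BNCT. The liver marker miR-122-5p passed in neither group, at 244.3 units in control and 254.2 in BNCT.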
